A study of Mus musculus with 16 samples.

Results

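Nuclear receptors are transcription factors that bind DNA through paired zinc fingers, and many of them are switched by small fat-soluble ligands such as retinoic acid, thyroid hormone, steroids, oxysterols and fatty acids. Some act as single molecules or homodimers, and many pair with a retinoid X receptor (RXR), while the orphan receptors have no settled ligand. In embryonic stem (ES) cells the retinoic acid receptors are known for carrying the signal that takes the cells out of self-renewal, and the COUP transcription factors Nr2f1 and Nr2f2 are known as genes that come on during that exit. The genes described here are 42 members of this family, among them Nr2f2 and Pparg, out of 20972 genes that had a named probe on the array. They were taken by gene symbol from the superfamily, and Esrrb, Nr5a2, Nr0b1 and Hnf4a were not counted among them. A total of 62 probes measured them.

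Mouse E14 ES cells were kept in 15% serum and in LIF, a cytokine that maintains self-renewal. They were transfected by lipofection with 3 µg of 1 of 4 plasmids, sorted for eGFP after 24 h, plated again and harvested at 48 h. Ptn_VP64, Ptn_DEL and Ptn_Delta cells received a TALE, a designed DNA-binding protein, directed at the promoter of Ptn, the gene of the secreted growth factor pleiotrophin. In Ptn_VP64 the TALE carried VP64, a synthetic activator built from a repeated viral VP16 motif, and in Ptn_DEL it carried DEL, an acidic peptide known for opening chromatin. The content of Ptn_Delta is not given in the labels. EGFP cells received the fluorescent protein alone. Expression was transient and all 4 groups went through the same sort, so the groups hold sorted cells that took up plasmid and no untransfected cells. Each group had 4 one-colour Agilent arrays, of which 2 are biological and 2 technical replicates in an order that the labels do not give. The cultures are not described as separate beyond this, and the precision of every value is limited by this number of arrays.

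Signal varied between arrays, from a 75th percentile of 1253 in Ptn_VP64 replicate 1 to 209 in EGFP replicate 2, and 27.1 to 43.8% of spots were well above background. EGFP replicate 2 stands apart, since its probes that were not well above background had a median level of -1.77, against -5.68 to -3.39 on the other arrays. Dim or bright patches covered 0.641 to 35.6% of the spots of an array, and these spots were left out. Each construct kept the same column of both slides, so the construct and the slide column cannot be told apart. A level is the log2 of the spot's signal minus the log2 of its array's 75th percentile, after correction for patches, and differences are on this log2 scale. Levels are compared for the same probe across arrays and never between genes. Ptn itself had levels of 2.60 to 3.31 in Ptn_VP64 and -2.53 to 0.56 on the other 12 arrays, with left-out spots counted. The ES cell markers fixed for the check, which include Pou5f1, Sox2 and Zfp42, were well above background on all 4 arrays for 9, 9, 10 and 9 of 10 genes in Ptn_VP64, Ptn_DEL, Ptn_Delta and EGFP. Their mean level per array was 4.50 to 5.39 in Ptn_VP64, 5.15 to 5.55 in Ptn_DEL, 5.12 to 5.89 in Ptn_Delta and 5.39 to 5.90 in EGFP.

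Of the 42 receptor genes, 6 were well above background on all 16 arrays. These were Nr2f6, Rara, Rxrb, Nr1d2, Nr1h2 and Nr4a1. At the other end, 6 genes were well above background on no array, namely Nr1i3, Vdr, Hnf4g, Nr2e3, Nr4a3 and Nr0b2, which include the xenobiotic receptor CAR, the vitamin D receptor and the small heterodimer partner. Another 9 genes reached that mark on 1 to 3 arrays. They were Pparg, Thrb, Rorb, Nr1h4, Nr1i2, Nr2e1, Esr1, Esrrg and Pgr, so the classical oestrogen receptor, the progesterone receptor, the bile acid receptor FXR and the receptor PXR were at or near background in every group. A gene was tested if 4 or more of the 16 arrays had a probe well above background and if 2 or more arrays of every group had a usable spot. On that rule 26 members were tested, 15 lacked the signal, and Rarg, which was well above background on 15 arrays, had a single usable spot in Ptn_Delta.

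**Figure D1:**
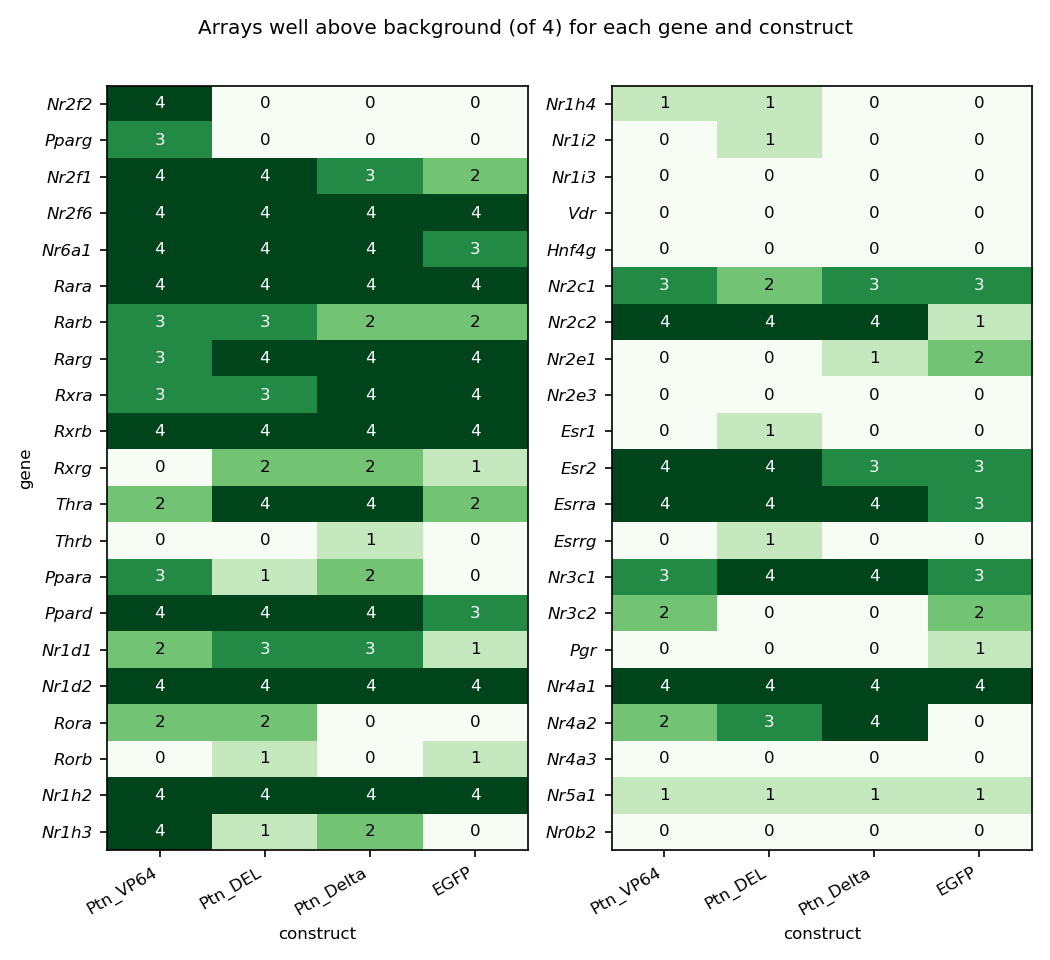
Number of arrays, of 4 in each group, on which each of the 42 receptor genes was well above background; rows are genes, columns are Ptn_VP64, Ptn_DEL, Ptn_Delta and EGFP. Nr2f2 is filled for 4 Ptn_VP64 arrays and Pparg for 3, with 0 in the other 3 columns, whereas genes such as Rara, Rxrb and Nr4a1 are filled in all 4 columns.

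Nr2f2 and Pparg were well above background in Ptn_VP64 and on none of the 12 other arrays. Nr2f2 codes for COUP-TFII, an orphan receptor known from vein and mesenchyme development. Pparg codes for the fatty acid receptor that directs fat cell formation and is also needed in the placenta. Among all 20972 named genes, 37 (0.176%) were well above background on 3 or 4 Ptn_VP64 arrays and on no other array, and these 2 were the members among them. The same count for the other groups was 2 genes (0.00954%) for Ptn_DEL, 19 (0.0906%) for Ptn_Delta and 8 (0.0381%) for EGFP, with no member in any of them. The pattern of Nr2f2 and Pparg was known when they were picked out by name, so the counts describe them and test nothing.

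The promoters of both genes are shown here because these are the members detected in Ptn_VP64 and on no other array. They are 300 bases each, with 250 before and 50 after an annotated start, from RefSeq on GRCm38.p6, read on the strand of the gene, and capitals mark matches to AGGTCA, the half-site that most nuclear receptors bind. The Nr2f2 stretch is chr7:70366697-70366996 (minus strand), and the Pparg stretches are chr6:115360894-115361193 and chr6:115362099-115362398 (plus strand).
Nr2f2: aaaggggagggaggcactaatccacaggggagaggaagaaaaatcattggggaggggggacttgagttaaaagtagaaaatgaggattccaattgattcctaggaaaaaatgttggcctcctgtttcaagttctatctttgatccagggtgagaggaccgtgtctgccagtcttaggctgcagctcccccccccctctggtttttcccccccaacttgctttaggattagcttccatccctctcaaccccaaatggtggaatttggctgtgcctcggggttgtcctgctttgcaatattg
Pparg, first start: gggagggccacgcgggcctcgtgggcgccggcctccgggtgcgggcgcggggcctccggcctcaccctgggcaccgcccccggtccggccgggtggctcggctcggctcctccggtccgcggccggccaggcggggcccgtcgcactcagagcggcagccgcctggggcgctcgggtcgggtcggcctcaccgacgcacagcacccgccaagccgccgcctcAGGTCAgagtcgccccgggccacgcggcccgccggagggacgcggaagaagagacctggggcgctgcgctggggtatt
Pparg, second start: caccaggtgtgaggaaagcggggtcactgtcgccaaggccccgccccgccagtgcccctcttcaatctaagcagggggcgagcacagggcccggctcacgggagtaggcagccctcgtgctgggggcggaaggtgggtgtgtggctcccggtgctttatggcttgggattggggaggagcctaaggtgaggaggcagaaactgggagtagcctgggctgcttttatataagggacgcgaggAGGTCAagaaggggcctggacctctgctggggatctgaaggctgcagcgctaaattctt
Each of the 2 Pparg stretches held 1 match, with its first base at position -28 and -9 from the start, counting the last base before the start as -1. The last annotated Pparg start, chr6:115421816-115422115 (plus strand), had none of these letters in its window, and neither had the Nr2f2 stretch. GC content was 49.7% at Nr2f2 and 80.3%, 62.7% and 40.3% at the 3 Pparg starts in this order. The search covered both strands and was chosen after the levels were seen. AGGTCA occurred in 10 of the 56 promoters (17.9%) of the 38 members with an entry, and in 5340 of all 32851 promoters (16.3%). Thra, Hnf4g, Nr3c1 and Nr5a1 had no entry.

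Nr2f2 levels in Ptn_VP64 were 0.21, -1.13, 0.28 and -1.44 for replicates 1 to 4. They were -4.25, -4.33, -4.24 and -4.38 in Ptn_DEL, -4.83, -4.69, -2.94 and -4.52 in Ptn_Delta, and -2.66, -3.02, -3.47 and -4.27 in EGFP. The 4 Ptn_VP64 levels lay above all 12 others, with no overlap. Among all tested genes with a usable spot on every array, 20 of 570 (3.51%) had their 4 Ptn_VP64 levels above the other 12. Group means were -0.52 ± 0.89 in Ptn_VP64, -4.30 ± 0.07 in Ptn_DEL, -4.24 ± 0.88 in Ptn_Delta and -3.35 ± 0.70 in EGFP (SD, n = 4 arrays each). The probe reached the test through its Ptn_VP64 arrays alone, so that it passed the filter is no support for the difference.

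Since no array of the other groups was well above background, a reduced fold is given. Each dim array counts with the highest of its lowest clearly detected level, its median level of undetected probes and its Nr2f2 level. An undetected spot can lie above that level, so the fold is not a strict lower bound. On this scale Nr2f2 was 7.27-fold higher in Ptn_VP64 than in Ptn_DEL, 8.29-fold higher than in Ptn_Delta and 3.66-fold higher than in EGFP. The fitted differences were 2.83 ± 0.48 (SE) between Ptn_VP64 and EGFP, 3.78 ± 0.48 between Ptn_VP64 and Ptn_DEL and 3.72 ± 0.48 between Ptn_VP64 and Ptn_Delta. For the limma test the arrays of a group were averaged in pairs by number, in 3 ways that were the same for all 4 groups. The largest p was kept, and pairings that differed between groups were not fitted. Unadjusted p by this limma test was 0.00184 against EGFP, 0.000477 against Ptn_DEL and 0.000511 against Ptn_Delta. After Benjamini-Hochberg adjustment over all 11173 genes tested the values were 0.322, 0.757 and 0.812, so none passed 0.05. With all 16 arrays taken as separate samples in limma, the adjusted p was 0.00932 against EGFP, 0.00397 against Ptn_DEL and 0.00522 against Ptn_Delta. That fit counts technical repeats as replicates, which makes its p too small by an unknown amount. With normexp background correction, which adds an offset of 50 to every signal, the Nr2f2 difference between Ptn_VP64 and EGFP was 0.68. Over the alternative settings other than leaving out an array, the lowest Ptn_VP64 difference was 2.58 against Ptn_DEL and 2.44 against Ptn_Delta. The 3 comparisons share the same Ptn_VP64 arrays. Within slide 1 and slide 2 the Ptn_VP64 difference was 2.38 and 3.29 against EGFP, 3.83 and 3.72 against Ptn_DEL, and 4.30 and 3.15 against Ptn_Delta.

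Pparg levels in Ptn_VP64 were -0.53, -0.93, -0.06 and -0.70, and the second of these was not well above background. They were -3.45, -2.99, -4.16 and -3.55 in Ptn_DEL, -3.45, -3.38, -3.40 and -3.38 in Ptn_Delta, and -3.59, -1.63, -3.64 and -3.75 in EGFP. The 4 Ptn_VP64 levels lay above the 12 others, and the other 3 groups overlapped one another. The 3.51% given beside Nr2f2 is a share of tested genes, which do not include Pparg, and no such share is given for untested probes. The EGFP value nearest to Ptn_VP64 came from replicate 2, the array with the raised background. Group means were -0.55 ± 0.37 in Ptn_VP64, -3.54 ± 0.48 in Ptn_DEL, -3.40 ± 0.03 in Ptn_Delta and -3.15 ± 1.02 in EGFP (SD, n = 4 arrays each). Counted in the same way as for Nr2f2, Pparg was 6.08-fold higher in Ptn_VP64 than in Ptn_DEL, 6.55-fold higher than in Ptn_Delta and 3.51-fold higher than in EGFP. The Ptn_VP64 mean in these folds includes replicate 2, which was not well above background, at its measured level. Neither side is therefore strictly bounded. With 3 arrays well above background it fell short of the filter and was not tested. With no filter on dim probes, the limma test over pairings gave 2.60 between Ptn_VP64 and EGFP with an unadjusted p of 0.00178 and an adjusted p of 0.842. The difference between Ptn_VP64 and EGFP was 1.88 within slide 1 and 3.32 within slide 2.

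In Ptn_VP64 both genes were higher on replicates 1 and 3 than on replicates 2 and 4. Replicates 1 and 3 lay in the same row of their slides, and whether they repeat 1 RNA is not stated. Markers of other cell types are described next, and none of those tested passed the adjusted test over pairings between Ptn_VP64 and EGFP. Of 10 trophoblast markers, 6, 3, 3 and 1 were well above background on all 4 arrays in Ptn_VP64, Ptn_DEL, Ptn_Delta and EGFP, and their mean level per array was -0.22 to 1.05, -1.26 to -0.39, -1.42 to -0.05 and -1.10 to -0.40 in the same order. Hand1 and Esx1 were well above background in Ptn_VP64 alone, and Elf5 was on no array. All 5 trophoblast markers tested were higher in Ptn_VP64 than in EGFP, with a median difference of 2.81, and 0 of them passed the adjusted test in either fit. Of 10 endoderm markers Afp and Ttr were detected on no array, and the mean level of all 10 per array was -1.41 to -1.08 in Ptn_VP64 and -2.31 to -0.92 in EGFP. The 7 of them tested had a median difference of 0.38 between Ptn_VP64 and EGFP. Of these, Col4a1 was called in the unaveraged limma fit, at 2.15 with an adjusted p of 0.000959. The 9 ES cell markers tested had a median difference of -0.38 between Ptn_VP64 and EGFP, with 1 of 9 higher. Of 9 fibroblast markers, whose mean level per array was -3.02 to -1.64 in Ptn_VP64 and -3.73 to -1.37 in EGFP, Postn and Prrx1 were detected on no array. The 4 fibroblast markers tested had a median difference of 1.30, with 3 of 4 higher, among them the collagen gene Col1a1 at 3.00 ± 1.34. The mean level of 7 neural markers per array was -0.89 to -0.54 in Ptn_VP64 and -0.85 to -0.16 in EGFP. The 4 neural markers tested had a median of -0.42, with 1 of 4 higher, and the neural factor Sox1 had the smallest p at -2.29 ± 0.75 (unadjusted p = 0.0190 and adjusted p = 0.490 by limma over pairings). Of 7 mesoderm and primitive streak markers, whose mean level per array was -4.33 to -3.48 in Ptn_VP64 and -3.39 to -1.31 in EGFP, Msgn1 and Tbx6 were detected on no array. In each group 0 of the 7 were well above background on all 4 arrays, and 5 were on no Ptn_VP64 array. Undetected probes had a median level of -1.77 on EGFP replicate 2. These means can therefore follow array background, and no lower expression is read from them. The 2 mesoderm markers tested had a median of -0.62, with 1 of 2 higher. None of the tested fibroblast, neural or mesoderm markers passed the adjusted test in either fit. The part of these markers in the Nr2f2 and Pparg levels was not tested. In bulk RNA more cells that express a gene and more RNA per cell cannot be told apart, here or in any result that follows.

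**Figure D2:**
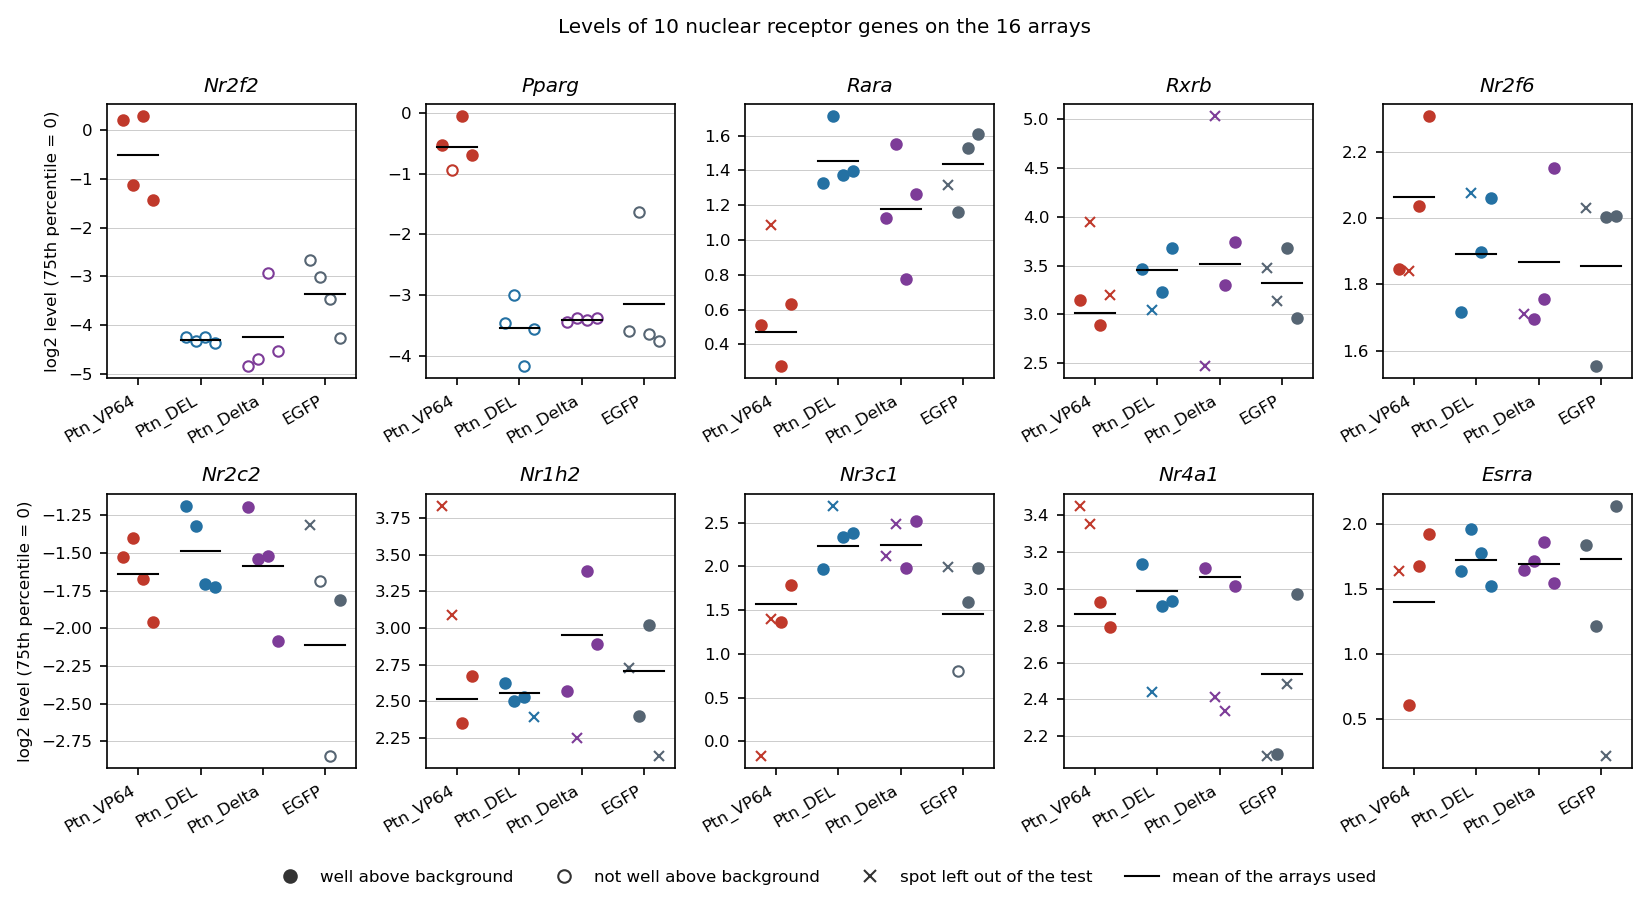
Log2 level relative to the array's 75th percentile for 10 receptor genes on each array, in Ptn_VP64, Ptn_DEL, Ptn_Delta and EGFP; filled points were well above background, open points were not, crosses are spots left out of the test, and lines are group means of the arrays used. Nr2f2 and Pparg lie between -1.44 and 0.28 in Ptn_VP64 and at or below -1.63 in the other groups, whereas the other 8 genes overlap between Ptn_VP64 and at least 1 other group once left-out spots are counted.

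The other COUP-type and orphan receptors of the Nr2 and Nr6 groups did not share the Nr2f2 pattern. Nr2f1, the close relative COUP-TFI, had levels of -1.18, -1.25, -1.0003 and -1.04 in Ptn_VP64, and -1.77 to -0.59 over the usable arrays of the other 3 groups, within which all 4 Ptn_VP64 levels fell. Its difference between Ptn_VP64 and EGFP was -0.01 ± 0.35 (SE). Nr2f6, also called EAR2, had levels of 1.85, 2.04 and 2.31 in Ptn_VP64, 1.72, 1.90 and 2.06 in Ptn_DEL, 1.69, 1.76 and 2.15 in Ptn_Delta, and 1.55, 2.00 and 2.01 in EGFP, and the groups overlapped. Nr2c2, the testicular receptor TR4, had levels of -1.53, -1.40, -1.68 and -1.96 in Ptn_VP64, -1.19, -1.32, -1.71 and -1.73 in Ptn_DEL, -1.20, -1.54, -1.52 and -2.08 in Ptn_Delta, and -1.69, -2.85 and -1.81 in EGFP, where a single array was well above background. The single lowest Nr2c2 value, -2.85, was an EGFP array, and the groups overlapped. Nr2c1, the testicular receptor TR2, had group means of 0.42, 0.63, 0.99 and 0.51 in Ptn_VP64, Ptn_DEL, Ptn_Delta and EGFP. Nr6a1 codes for GCNF, known for silencing Pou5f1 as ES cells differentiate, and its means were -1.01, -1.20, -0.94 and -0.86 in the same order.

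Of the retinoic acid receptors, which bind all-trans retinoic acid and pair with RXRs, Rara codes for subtype α, and its usable Ptn_VP64 values were its lowest, though not past the adjusted test. Rara levels were 0.51, 0.28 and 0.63 in Ptn_VP64, 1.33, 1.71, 1.38 and 1.40 in Ptn_DEL, 1.12, 1.55, 0.78 and 1.27 in Ptn_Delta, and 1.16, 1.53 and 1.61 in EGFP. The 3 usable Ptn_VP64 values lay below all the others, but the left-out spot of replicate 2 was at 1.09, inside their range. The share of all genes with such a downward split is not given here. The difference was -0.89 ± 0.23 between Ptn_VP64 and EGFP, -0.94 ± 0.26 between Ptn_VP64 and Ptn_DEL and -0.67 ± 0.26 between Ptn_VP64 and Ptn_Delta. By limma over pairings the unadjusted p was 0.0117, 0.00964 and 0.0402, and the adjusted p was 0.437, 0.986 and 0.9999. With the arrays unaveraged, limma gave an adjusted p of 0.0583 against EGFP, and 0.0452 without EGFP replicate 2. A second Rara probe had levels of -1.47, -0.67 and 0.03 in Ptn_VP64, 0.74 and 0.34 in Ptn_DEL, 0.28, 0.71, -0.62 and 0.93 in Ptn_Delta, and 0.57, 0.80 and 0.38 in EGFP. Its difference between Ptn_VP64 and EGFP was -1.16, of the same sign as the first probe. Both probes lay lower in Ptn_VP64, and the fit of the first rests on 3 usable Ptn_VP64 spots.

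Rarg, which codes for subtype γ, had usable levels of 1.39 and 2.11 in Ptn_VP64, 2.60 and 2.76 in Ptn_DEL, 2.36 in Ptn_Delta and 2.90, 2.85 and 2.61 in EGFP. Both usable Ptn_VP64 values lay below the 6 others. The left-out Rarg spots and the share of all genes with such a split are not given here. No test was run on so few usable spots. Rarb, which retinoic acid is known to switch on through an element in its own promoter, had levels of -3.58, -1.59 and -2.92 in Ptn_VP64 and -2.56, -1.19 and -2.22 in EGFP, with 3 and 2 arrays well above background. Its difference between Ptn_VP64 and EGFP was -0.63 ± 0.62 with overlapping groups. Of the RXRs, Rxrb had levels of 3.15 and 2.89 in Ptn_VP64, 3.47, 3.22 and 3.68 in Ptn_DEL, 3.30 and 3.74 in Ptn_Delta, and 3.68 and 2.96 in EGFP. Rxra had means of -1.42, -1.20, -1.13 and -0.89 in Ptn_VP64, Ptn_DEL, Ptn_Delta and EGFP, a difference of -0.46 ± 0.31 between Ptn_VP64 and EGFP. The tested Rxrg probe was well above background on 0, 2, 2 and 1 arrays of the same groups, and a second, brighter Rxrg probe had levels of -0.44 to -0.05 in Ptn_VP64 and -0.22 on its only usable EGFP array. Rarg and Rxrg are given here after their values were seen.

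The other genes of the retinoid pathway were a list of 21, and 15 could be tested. Between Ptn_VP64 and EGFP 12 of the 15 were higher with a median difference of 0.35, against 0.01 over all genes, and 0 passed the adjusted test over pairings, where 2 of all 11173 genes (0.0179%) did. At an unadjusted p under 0.05, 5 were higher and 1 lower, against 8.06% of all genes in either direction. In the unaveraged limma fit, which called 2.69% of all genes, those called were all higher and included Cyp26a1, Dhrs3 and Rdh10. Rdh10 codes for the enzyme that oxidises retinol to retinal, Dhrs3 for the one that reduces retinal back, and Cyp26a1 for the enzyme that breaks retinoic acid down.

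Cyp26a1 levels were 0.88 and -0.38 in Ptn_VP64, -1.18, -1.30, -1.56 and -0.93 in Ptn_DEL, -1.21, -1.36, -0.87 and -0.98 in Ptn_Delta, and -2.20, -1.43, -2.05 and -2.75 in EGFP, where 1 array was well above background. Both usable Ptn_VP64 values, and the left-out ones at -0.64 and 0.75, lay above all the others, a split whose share among all genes is not given here. The spot at -0.64 lay in a patch and was not well above background. Without patch correction it was at -2.34, inside the EGFP range of -3.06 to -1.38 on that scale. The Ptn_VP64 minus EGFP difference was 2.36 ± 0.41, with an adjusted p of 0.333 over pairings and 0.00787 unaveraged in limma, and it was 0.86 without patch correction.

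Dhrs3 levels were -0.82, -0.14, -0.19 and -0.44 in Ptn_VP64, -1.51, -0.76, -1.54 and -1.21 in Ptn_DEL, -1.56, -1.01, -1.84 and -1.37 in Ptn_Delta, and -1.33, -3.51, -1.94 and -1.60 in EGFP, where again 1 array was well above background. Ptn_VP64 and EGFP did not overlap, and 1 Ptn_DEL array reached into the Ptn_VP64 range. How many of all genes split in this way between Ptn_VP64 and EGFP is not given here. The Dhrs3 difference between Ptn_VP64 and EGFP was 1.70 ± 0.41, with limma adjusted p of 0.377 over pairings and 0.0362 unaveraged. Rdh10, which lies outside the naming rule and was added after its values were seen, had levels of 0.81, -0.16, 0.70 and 0.07 in Ptn_VP64, 0.07, 0.01 and -0.14 in Ptn_DEL, 0.36, -0.23, 0.25 and -0.10 in Ptn_Delta, and -0.54, -1.47, -0.60 and -0.61 in EGFP. Its difference between Ptn_VP64 and EGFP was 1.16 ± 0.36, with limma adjusted p of 0.458 over pairings and 0.0397 unaveraged, and the first 3 groups overlapped. In all 4 groups, and not in Ptn_VP64 alone, the usable Rdh10 values were higher on replicates 1 and 3 than on 2 and 4. Dhrs3 in Ptn_VP64 did not follow this order, since its lowest value, -0.82, was on replicate 1.

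Against EGFP, Ptn_DEL and Ptn_Delta also had more retinoid genes higher than lower, 9 of 15 with a median of 0.38 and 11 of 15 with a median of 0.65. These 3 comparisons share the EGFP arrays. With another background correction (normexp) both medians changed sign, to -0.01 for Ptn_DEL and -0.02 for Ptn_Delta. Stra8, a germ cell gene that retinoic acid is known to switch on, ran the other way, with a mean of -0.11 in Ptn_VP64, 2.89 in Ptn_DEL, 2.63 in Ptn_Delta and 1.97 in EGFP. The Stra8 difference was -3.04 ± 0.33 between Ptn_VP64 and Ptn_DEL, with an unadjusted p of 0.00216 and an adjusted p of 0.855 by limma over pairings.

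**Figure D3:**
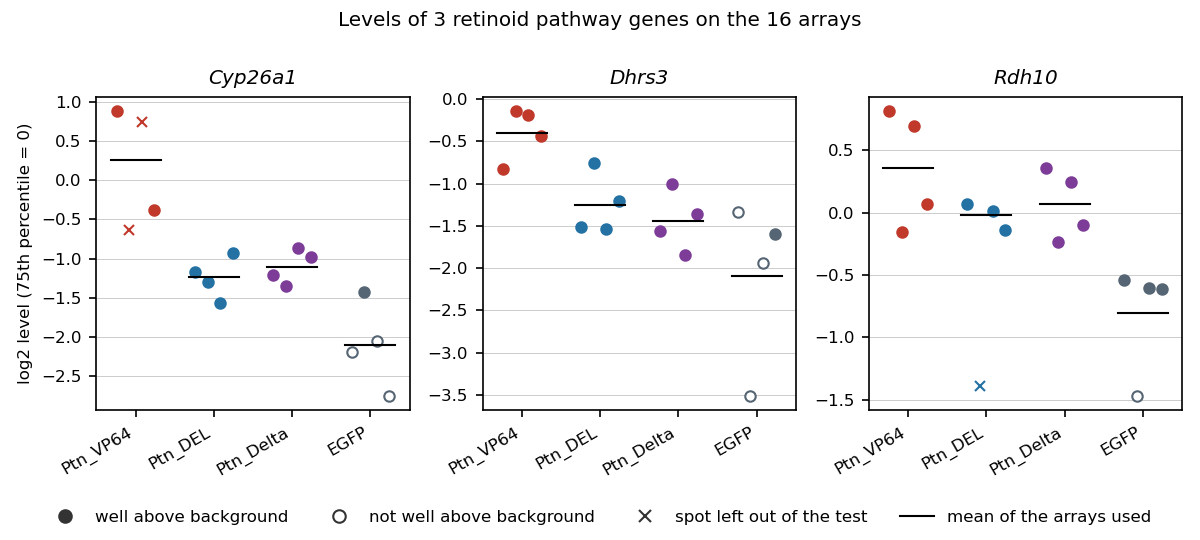
Log2 level relative to the array's 75th percentile for the retinoid genes Cyp26a1, Dhrs3 and Rdh10 on each array, in Ptn_VP64, Ptn_DEL, Ptn_Delta and EGFP; filled points were well above background, open points were not, crosses are left-out spots and lines are group means of the arrays used. For each gene the Ptn_VP64 values lie above the 4 EGFP values, and how many of all genes split in this way is not given. Ptn_DEL and Ptn_Delta reach into the EGFP range for Dhrs3 and into the Ptn_VP64 range for Rdh10.

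The promoters of Rarb and Cyp26a1 are shown because both genes are known to carry a retinoic acid response element and had opposite signs of difference here. Capitals mark matches on either strand to GTTCA followed by any 5 bases and AGTTCA, a direct repeat of the kind known from Rarb, whose own match therefore follows from the choice of letters. Both are from RefSeq on GRCm38.p6, chr14:16575427-16575726 (minus strand) for Rarb and chr19:37697558-37697857 (plus strand) for Cyp26a1.
Rarb: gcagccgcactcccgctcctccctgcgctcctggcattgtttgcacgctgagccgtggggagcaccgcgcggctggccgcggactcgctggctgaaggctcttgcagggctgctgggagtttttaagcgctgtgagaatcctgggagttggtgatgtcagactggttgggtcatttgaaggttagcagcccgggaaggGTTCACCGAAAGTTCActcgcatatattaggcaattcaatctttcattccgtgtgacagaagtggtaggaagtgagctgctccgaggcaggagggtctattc
Cyp26a1: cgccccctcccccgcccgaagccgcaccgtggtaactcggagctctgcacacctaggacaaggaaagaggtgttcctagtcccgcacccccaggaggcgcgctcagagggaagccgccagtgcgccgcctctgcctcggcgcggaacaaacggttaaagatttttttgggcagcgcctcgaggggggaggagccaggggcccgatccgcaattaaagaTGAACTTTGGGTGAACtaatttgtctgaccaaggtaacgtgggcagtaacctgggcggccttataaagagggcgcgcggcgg
The match began at position -52 in Rarb, on the strand of the gene, and at -32 in Cyp26a1, on the other strand. These letters occurred in 11 of all 32851 promoters (0.0335%), and in 1 of the 56 member promoters (1.79%), that of Rarb. Neither the Rarb nor the Cyp26a1 stretch held AGGTCA. A match is a description of letters and was not tied to binding here.

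Ppard codes for the widely expressed fatty acid receptor of the PPAR group. It had means of 0.17, 0.60, 0.52 and 0.21 in Ptn_VP64, Ptn_DEL, Ptn_Delta and EGFP, and its 2 usable Ptn_VP64 values, 0.15 and 0.19, lay inside the EGFP range. Ppara, the receptor of hepatic fatty acid oxidation, was dim, with 3, 1, 2 and 0 arrays well above background in that order and means of -2.10, -1.74, -1.80 and -2.06. Of 20 PPAR target genes 13 were tested between Ptn_VP64 and EGFP. There 8 were higher and 5 lower with a median of 0.03, and 0 passed the adjusted test in either fit. At an unadjusted p under 0.05, 2 of the 13 were higher, against 8.06% of all genes in either direction. Acadl differed by 2.13 ± 0.50 and Plin2 by 1.17 ± 0.36, with limma adjusted p of 0.400 and 0.457. Acadl is an enzyme of fatty acid oxidation and Plin2 coats lipid droplets. Lpl, the lipoprotein lipase, differed by 0.89 ± 0.47. Acadl means were also higher in Ptn_DEL at 0.85 and Ptn_Delta at 0.49 than in EGFP at -1.92, beside 0.22 in Ptn_VP64.

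The oxysterol receptor LXRα, encoded by Nr1h3, was well above background on 4, 1, 2 and 0 arrays of Ptn_VP64, Ptn_DEL, Ptn_Delta and EGFP. Its usable levels were -0.68, -1.92 and -2.08 in Ptn_VP64, -2.42, -2.63 and -2.46 in Ptn_DEL, -2.51, -1.88, -2.43 and -2.57 in Ptn_Delta, and -1.35 and -3.13 in EGFP. The EGFP value of -1.35 lay above 2 of the 3 usable Ptn_VP64 values, so these groups overlapped. The fitted difference between Ptn_VP64 and EGFP was 0.55 ± 0.58 with an adjusted p of 1 by limma. It was 0.24 without Ptn_VP64 replicate 2, 0.30 without EGFP replicate 4, 1.49 without EGFP replicate 2 and -0.78 after normexp correction. Nr1h3 is outside the naming rule and was added after its values were seen. Nr1h2, which codes for the widely expressed LXRβ, had levels of 2.35 and 2.68 in Ptn_VP64, 2.63, 2.50 and 2.53 in Ptn_DEL, 2.57, 3.39 and 2.89 in Ptn_Delta, and 2.40 and 3.02 in EGFP, and the groups overlapped. Of 14 LXR and FXR targets 8 were tested between Ptn_VP64 and EGFP, 4 higher and 4 lower with a median of -0.00. Mylip, the ubiquitin ligase that lowers the LDL receptor, was 1.36 ± 0.36 higher (adjusted p = 0.406 over pairings and 0.0240 unaveraged in limma). Pltp, the phospholipid transfer protein, differed by -1.44 ± 0.30 (adjusted p = 0.412 over pairings and 0.0397 unaveraged in limma). Apoe differed by -0.59 ± 0.25.

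Of the circadian receptors, Nr1d2, the repressor REV-ERBβ, had means of 1.42, 1.66, 1.64 and 1.65 in Ptn_VP64, Ptn_DEL, Ptn_Delta and EGFP, and Nr1d1, REV-ERBα, had -2.22, -2.33, -2.15 and -2.36. Rora, an activator at the same DNA elements, was well above background on 2, 2, 0 and 0 arrays. Of 15 clock genes 10 were tested between Ptn_VP64 and EGFP, 5 higher and 5 lower with a median of 0.02. Tef, a clock output factor, was 0.83 ± 0.24 higher, with an adjusted p of 0.434 over pairings and 0.0195 unaveraged in limma. Its relative Dbp differed by -0.61 ± 0.25, and Nfil3, which opposes both at their DNA sites, by 0.88 ± 0.36.

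Of the steroid receptors, Nr3c1 codes for the glucocorticoid receptor. Its levels were 1.37 and 1.78 in Ptn_VP64, 1.97, 2.34 and 2.38 in Ptn_DEL, 1.98 and 2.52 in Ptn_Delta, and 0.80, 1.59 and 1.98 in EGFP. The difference between Ptn_DEL and EGFP was 0.67 ± 0.34 with an adjusted p of 0.9999 by limma, and the second Nr3c1 probe gave -0.45, so the probes disagreed in sign. Nr3c2, the mineralocorticoid receptor, was well above background on 2 arrays of Ptn_VP64 and 2 of EGFP, none of which had a usable spot that was well above background. Of 16 glucocorticoid targets and chaperones 10 were tested. Between Ptn_VP64 and EGFP 3 were higher with a median of -0.11, and between Ptn_VP64 and Ptn_Delta 10 of 10 were higher with a median of 0.26, which became 4 of 15 without patch correction. Errfi1, a feedback inhibitor of the EGF receptor, had means of 2.13 in Ptn_VP64, 1.45 in Ptn_DEL, 1.31 in Ptn_Delta and -0.87 in EGFP, where 1 array was well above background. Its difference between Ptn_VP64 and EGFP was 2.89 ± 0.46, with an unadjusted p of 0.00129 and adjusted p of 0.295 over pairings and 0.0242 unaveraged in limma.

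Esr2, the oestrogen receptor β, had means of 0.23, 0.29, 0.49 and 0.46 in Ptn_VP64, Ptn_DEL, Ptn_Delta and EGFP. Esrra, the oestrogen-related receptor known for mitochondrial genes, had levels of 0.61, 1.68 and 1.92 in Ptn_VP64, 1.64, 1.96, 1.78 and 1.52 in Ptn_DEL, 1.65, 1.71, 1.86 and 1.55 in Ptn_Delta, and 1.84, 1.22 and 2.14 in EGFP. Its lowest value was 1 Ptn_VP64 array and the rest overlapped. Nr4a1, an immediate early gene, had levels of 2.93 and 2.80 in Ptn_VP64, 3.13, 2.91 and 2.93 in Ptn_DEL, 3.11 and 3.01 in Ptn_Delta, and 2.10 and 2.97 in EGFP. Nr4a2 was well above background on 2, 3, 4 and 0 arrays in the same order. Its measured mean ran the other way, at -1.94 on 2 usable EGFP arrays against -2.48 in Ptn_DEL and -2.46 in Ptn_Delta. Nr5a1, the steroidogenic factor SF-1, was well above background on 1 array of each group. Thra, the thyroid hormone receptor α, had means of 0.29, 0.17, 0.15 and 0.06. Of 13 genes that handle thyroid hormone, vitamin D and oestrogen 7 were tested between Ptn_VP64 and EGFP, with 3 higher, a median of -0.01 and 0 past the adjusted test in either fit. Thrsp, a thyroid-responsive gene of lipid synthesis, differed by -1.31 ± 0.56.

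Coregulators are the proteins that receptors recruit to open or close chromatin. Of 21 coregulators 15 were tested between Ptn_VP64 and EGFP, 11 higher and 4 lower with a median of 0.09, and 0 passed the adjusted test over pairings. Nrip1, which codes for the corepressor RIP140, was the member with the smallest p. Its means were 0.04 in Ptn_VP64, -0.33 in Ptn_DEL, -0.18 in Ptn_Delta and -1.39 in EGFP. The Ptn_VP64 minus EGFP difference of Nrip1 was 1.31 ± 0.35 with limma adjusted p of 0.400 over pairings and 0.0263 unaveraged.

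Over the family as a whole, 0 of the 26 tested members passed the limma test over pairings in any of the 6 comparisons. The background was 2 of 11173 genes (0.0179%) between Ptn_VP64 and EGFP, 1 gene (0.00895%) between Ptn_VP64 and Ptn_DEL, 1 gene (0.00895%) between Ptn_VP64 and Ptn_Delta and 0 genes (0.0%) in the other 3. At an unadjusted p under 0.05, 2 members, Nr2f2 and Rara, passed in each of the 3 Ptn_VP64 comparisons, where 8.06% of all genes did against EGFP, 3.95% against Ptn_DEL and 4.65% against Ptn_Delta. No member did so between Ptn_DEL and EGFP, between Ptn_Delta and EGFP or between Ptn_DEL and Ptn_Delta, where 2.45, 2.73 and 0.0985% of all genes did. Nr2f2 entered the tested set through its Ptn_VP64 arrays alone, so neither its p nor its call is support for the difference. In the unaveraged fit Nr2f2 alone was called, in the 3 Ptn_VP64 comparisons, with 2.69, 0.51 and 0.448% of all genes called against EGFP, Ptn_DEL and Ptn_Delta. That fit called no member between Ptn_DEL and EGFP (0.0358% of all genes), between Ptn_Delta and EGFP (0.0269%) or between Ptn_DEL and Ptn_Delta (0.0%).

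Between Ptn_VP64 and EGFP 11 members were higher and 15 lower, with a median difference of -0.03 against 0.01 over all genes. Between Ptn_DEL and EGFP the split was 9 to 17 with a median of -0.03, and between Ptn_Delta and EGFP 12 to 14 with a median of -0.04, each against 0.02 over all genes. The splits turned with the scaling. Quantile normalization put 15, 19 and 19 of 26 members higher in Ptn_VP64, Ptn_DEL and Ptn_Delta than in EGFP, the values that the authors deposited put 15, 20 and 16 of 27 higher, levels without patch correction 15, 18 and 18 of 27, and normexp 7, 10 and 9 of 24. The median of all genes against EGFP moved to 0.17, 0.21 and 0.20 with the deposited values, and to 0.07, 0.18 and 0.18 without patch correction. Between Ptn_VP64 and Ptn_DEL 11 members were higher, between Ptn_VP64 and Ptn_Delta 10, and between Ptn_DEL and Ptn_Delta 12, with medians of -0.04, -0.13 and -0.01.

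The 2 members with the smallest p between Ptn_DEL and EGFP were Nr2c2 at 0.81 ± 0.39 and Nr3c1 at 0.67 ± 0.34. Between Ptn_Delta and EGFP they were Nr2c2 at 0.71 ± 0.39 and Nr2f2 at -0.89 ± 0.53, and Nr2f2 was well above background in neither group. Both Nr2c2 differences turned negative with its second probe, at -0.12 and -0.47. Between Ptn_DEL and Ptn_Delta the 2 members were Nr1h2 at -0.31 ± 0.26 and Rara at 0.27 ± 0.26, and adjusted p was 1 for both by limma.

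**Figure D4:**
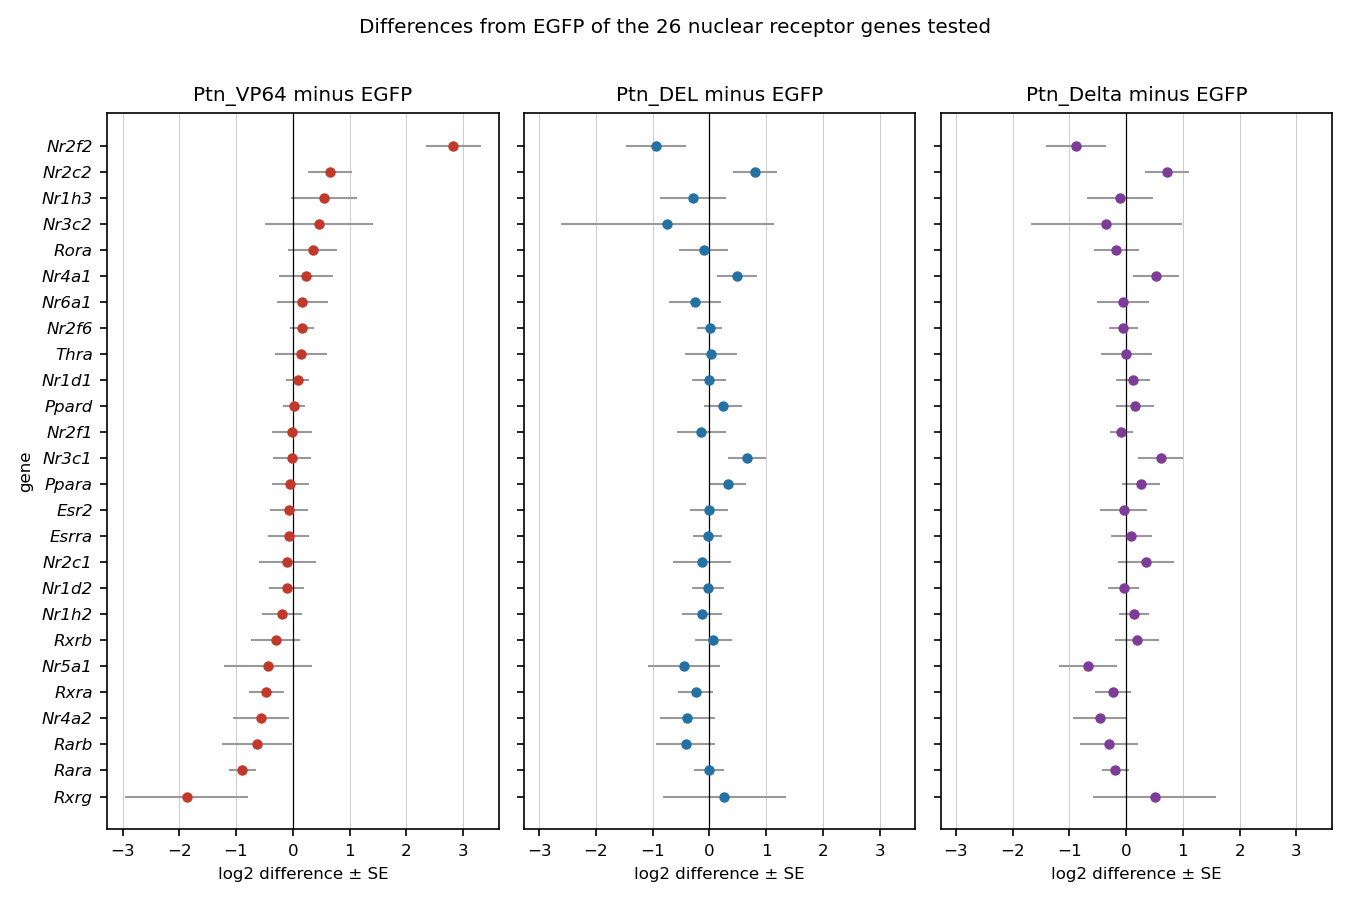
Fitted log2 differences of the 26 tested receptor genes for Ptn_VP64 minus EGFP, Ptn_DEL minus EGFP and Ptn_Delta minus EGFP, with bars of 1 standard error. Nr2f2 at 2.83 in Ptn_VP64 is the point farthest above 0, and most others lie within about 1 log2 unit of 0.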

How the data were processed

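One-colour Agilent arrays of polyadenylated RNA were read with Feature Extraction 11.5.1.1, per the file headers. The processed signal that the authors deposited is an intensity that Feature Extraction had background-subtracted and detrended, with no normalization across arrays, per the file headers. The authors also deposited log2 values with the same quantiles on every array, which served as an alternative, as did normexp (offset 50) on the median signal and background intensity, also deposited per the file headers. Each array held 59305 non-control spots for 55681 probes, of which 27656 had 1 gene symbol through a RefSeq table (GRCm38.p6, names and promoters only) and 28025 had none.

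Levels were log2 processed signal minus the array's log2 75th percentile. The local shift, the median difference from the 16-array median in 21 by 21 spots, taken over 17906 spots with a median level of at least -1, was subtracted. Spots whose shift differed by over 1 log2 unit from the median of the array, and spots marked as non-uniform or outliers, were left out. Each gene was read from its brightest passing probe, for 11173 genes tested (12735 without this correction). Arrays were averaged under 3 possible pairings, with slide as a term where pairs lay within slides, and fitted over all 4 groups with limma 3.58.1 (2-sided). Each pairing was applied to all 4 groups alike, and pairings that differ between groups were not fitted. The largest p was kept, adjusted by Benjamini-Hochberg and called under 0.05. The difference and SE printed are those of the pairing with the largest p. A second fit kept all 16 arrays with slide as a term.

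Values on every array are given for Nr2f2, Pparg, members with unadjusted p under 0.05 in any comparison or called unaveraged, the 2 smallest p in each comparison and the 6 highest mean levels. From each pathway list up to 3 genes with the smallest p are named, and 1 gene is not reported here. The members, lists, patch correction and tests were chosen with earlier results of these data known. The scripts were tested on simulated data. Python 3.11.15, numpy 2.4.6, pandas 2.3.3 and R 4.3.3 were used.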

Additional observations from a re-analysis of the deposited data

Results flagged for a closer look

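In 26 groups of 4 arrays, made up of the named receptor and retinoid genes with all 4 values, 3 had an array far from the other 3, where chance gives about 1 in 20. Nr2f2 was at -2.94 in Ptn_Delta replicate 3, above the other Ptn_Delta arrays at -4.83 to -4.52. Pparg was at -1.63 in EGFP replicate 2, above the other EGFP arrays at -3.75 to -3.59. Rdh10 was at -1.47 in EGFP replicate 2, below the other EGFP arrays at -0.61 to -0.54. Neither the Nr2f2 nor the Pparg value was well above background, and EGFP replicate 2 is the array with the weakest signal.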

How the results depend on the processing

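The count of receptor genes past the adjusted test was 0 in every comparison over pairings, and other fits moved it. With arrays unaveraged, marked spots left out or kept, it was 1 (Nr2f2) in each of the 3 Ptn_VP64 comparisons, and unaveraged without patch correction it was 1 between Ptn_VP64 and Ptn_Delta. Leaving out each array gave 0 to 2 between Ptn_VP64 and EGFP, the 2 being Nr2f2 and Rara without EGFP replicate 2, and 0 to 1 between Ptn_VP64 and Ptn_DEL and between Ptn_VP64 and Ptn_Delta. The unaveraged fits with marked spots kept, without patch correction or with an array left out were chosen after seeing the data. The replicate number was also fitted as a block. Same-numbered arrays correlated at -0.05 to 0.59 (median 0.23, 24 pairs), against medians of -0.08 for other numbers on the same slide and -0.13 across slides, and 13 of 16 correlated best with their own number, a hint from the data of something shared. The numbers were not taken as pairs, since not every same-numbered pair correlated and the labels tie the numbers to nothing shared. With this replicate block, arrays unaveraged, 2 members were called between Ptn_VP64 and EGFP (Nr2f2 and Rxrg) and 1 in each of the other Ptn_VP64 comparisons. Nr2f2 was 2.83 there, with a limma adjusted p of 0.00237. The tested Rxrg probe was well above background on 0 Ptn_VP64 arrays and 1 EGFP array. Nr2f2 passed the filter through its Ptn_VP64 arrays alone, so its calls are no support for the difference. The share of all genes called with the block or with an array left out is not given here, so these counts have no background beside them. For Nr2f2 between Ptn_VP64 and EGFP the other values past the threshold were 2.83 with an adjusted p of 0.00932 (unaveraged) and 0.0077 (unaveraged, marked spots kept). Leaving out each array gave 2.40 to 3.26 over pairings and 2.50 to 3.16 unaveraged, with adjusted p of 0.274 to 0.501 and 0.00376 to 0.0364. The Ptn_VP64 minus EGFP difference kept its sign in all 51 alternatives for Nr2f2 and all 53 for Rara. Its range for Nr2f2 was 0.68 to 3.45. Pparg had a value in 14 alternatives only, and its difference ranged over 1.88 to 3.32 there, so the ranges are not alike. Signs turned in these cases, and the cause was not tested. Nr2f2 with the deposited values was 0.32 for Ptn_DEL and 0.54 for Ptn_Delta against EGFP, and 0.14 within slide 2 for Ptn_Delta. Nr1h3 was -0.78 after normexp. Nr2c2 against EGFP was -0.80 and -0.80 in Ptn_DEL and Ptn_Delta unaveraged with marked spots kept, -0.41 and -0.43 over pairings with them kept, -0.0055 and -0.082 after normexp, -0.12 and -0.57 with an 11-spot patch window, and -0.12 and -0.47 with its second probe. Nr3c1 in Ptn_DEL against EGFP was -0.45 with its second probe. Nr1h2 between Ptn_DEL and Ptn_Delta was 0.0095 without Ptn_DEL replicate 3, or 0.0111 unaveraged. The arrays give no bound below their background, so a receptor not well above it may still have been expressed.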
